A study of Mus musculus with 4 samples.

Results

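The cells described here were T cells of the tumor gate that carried at least 1 UMI of TCF7 or LEF1 and none of FOXP3, CD8A, CD8B, NCR1 or KLRF1. A UMI, or unique molecular identifier, stands for 1 captured mRNA molecule. The cells also had at least 3 UMIs summed over CD3D, CD3E, CD3G and TRAC, at most 1 UMI of CXCL13 and at most 4 UMIs summed over C1QA, C1QB and LYZ. There were 460 such cells among 3484 T cells of the gate and 16327 kept cells in all, 136 of them in reaction 1 and 324 in reaction 2. They were selected on measured values, so the levels of those 15 genes are given as a description and were not tested as findings.

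The study engrafted MISTRG mice, which lack their own lymphocytes and carry human cytokine genes, with human CD34+ fetal liver cells, and implanted the human breast cancer line MDA-MB-231. The untreated mice are called U1 to U7, and the mice that drank water with the drug maraviroc at 300 mg/l for 10 days from day 21 are called M1 to M7. On day 31 the cells of each tumor were tagged with 1 hashtag antibody per mouse, and human CD45+ cells were sorted and pooled for droplet 3' single-cell RNA-seq in 2 reactions. Reaction 1 held U1 to U4 and M1 to M3, and reaction 2 held U5 to U7 and M4 to M7. All groups shared the same host strain, graft type and tumor line, so the human T cells developed and responded in a mouse and not in a patient. Reaction 1 gave 133089612 UMIs over 29120 barcodes, of which 7361 were kept, and reaction 2 gave 175447534 UMIs over 13582 barcodes, of which 8966 were kept. The 2 reactions shared 136 barcodes, 32 barcodes were kept in both, and 3 of the 460 cells had such a barcode.

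TCF7 encodes TCF-1, and LEF1 a close relative of it. Both proteins bind DNA through the same kind of domain, keep naive and memory T cells in a resting, long-lived state, and partner with beta-catenin and with TLE corepressors. Such cells typically express IL7R, the receptor for the survival cytokine interleukin-7, and the homing receptor CCR7, which leads them into lymph nodes. TCF7 and LEF1 are not restricted to T cells: immature NK cells and innate lymphoid cells also use TCF-1.

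Within the 460 cells, 225 had TCF7 alone, 81 had LEF1 alone and 154 had both. The sum of TCF7 and LEF1 was exactly 1 UMI in 152 cells, 2 UMIs in 96 cells and 3 or more in 212 cells. The summed CD3 and TRAC count was at its lower limit of 3 in 41 cells, and 54 further cells stayed outside with 2. Another 51 cells stayed outside with 1 UMI of CD8A or CD8B, 101 with 1 UMI of NCR1 or KLRF1, and 2 with 5 UMIs of the myeloid genes. The cells had a median of 7591 UMIs and 2954.5 genes, compared with 5050 UMIs and 2304 genes in T cells that passed the same rule with TCF7 and LEF1 at 0 (667 cells, called TCF7/LEF1-negative below). FOXP3-positive T cells of the same gate (1014 cells) had a median of 7087.5 UMIs, and CD8 T cells (670 cells) 6926.

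The name conventional T cell held for only a portion of them. NCAM1 (CD56), KLRC1 (NKG2A) and FCGR3A (CD16) are receptor genes that NK cells express and that the rule did not read. A UMI of any of them was present in 148 of the 460 cells, or 32.2% (95% exact binomial interval 27.9% to 36.7%, counting error only). The same share was 10.2% in FOXP3-positive T cells at a similar depth, 42.7% in the TCF7/LEF1-negative T cells and 51.9% in CD8 T cells. These groups came from the same gate and may hold NK cells too. Whether such a UMI by itself marked an NK cell was not tested, and its background share was not estimated. Among those 148 cells, 73.0% had at least 4 UMIs of TYROBP and FCER1G, the signalling adaptors of NK and myeloid receptors, against 2.56% of the other 312. TRDC, the delta T cell receptor constant gene, whose transcript NK cells also carry, was detected in 80.4% against 6.41%. TRAC, the alpha chain constant gene, was at 0 in 39.2% against 15.7%. CD4 or CD40LG, the ligand by which helper T cells license their partners, was detected in 18.2% against 72.1%. The 2 subsets were split after these values had been seen, so their differences are a description.

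The levels followed the same line. CPM are the UMIs of a gene scaled to the same total for every group (counts per 1e6). In the 312 cells without these NK receptors, IL7R stood at 361 CPM, CCR7 at 113, KLF2 at 338 and CD40LG at 126 CPM. In the 148 cells with an NK receptor, IL7R was 65.4 CPM, CCR7 35.7, KLF2 97.0 and CD40LG 18.9 CPM. These levels were summed over mice. Within mice, IL7R was higher in the cells without an NK receptor in 13 of 14, CCR7 in 12, CD40LG in 11 and KLF2 in 10, while KLF2 was lower in 4, some of them with few cells on 1 side. CD3E was alike in both, at 258 and 255 CPM, while CD3D was 648 and 336 CPM and TRAC 434 and 142 CPM. GNLY, encoding the lytic protein granulysin, was 383 CPM without and 10852 CPM with an NK receptor, and NKG7, a granule protein gene, was 65.4 and 1106 CPM. TCF7 itself was 350 and 144 CPM, and LEF1 156 and 84.2 CPM. MKI67 or TOP2A, 2 genes of dividing cells, were detected in 23.1% of the cells without and 41.2% of the cells with an NK receptor.

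**Figure D1:**
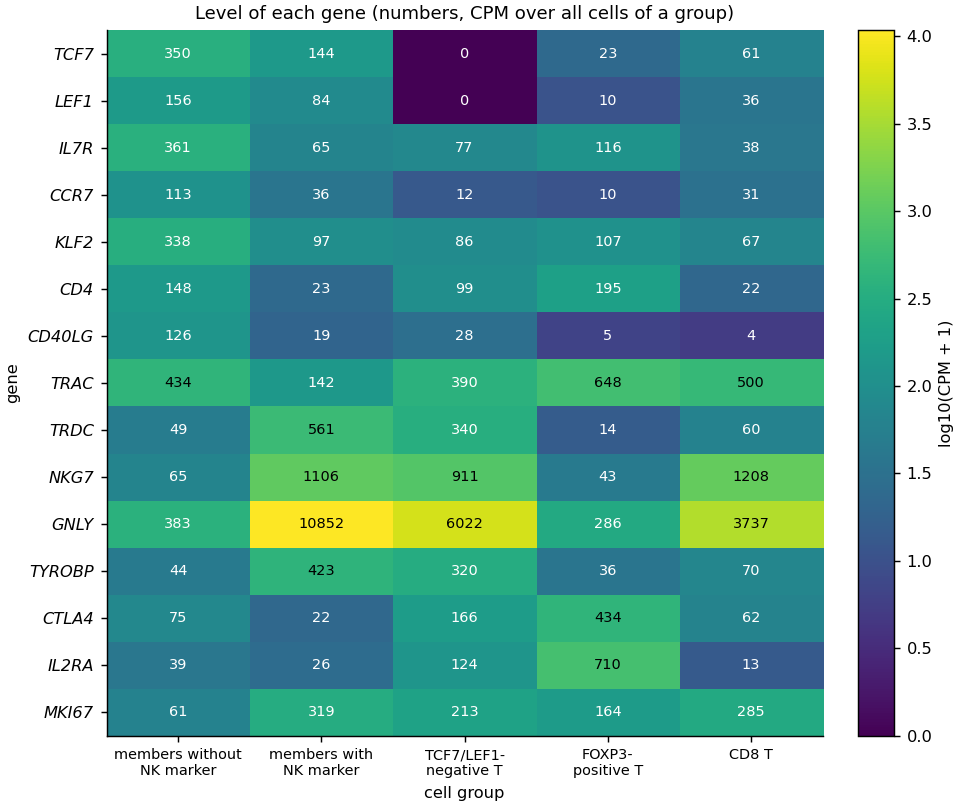
Level of 15 genes (rows) in 5 groups of T cells (columns), with the number giving CPM summed over all cells of the group and the colour log10(CPM + 1). IL7R, KLF2 and CD40LG were highest in the cells without an NK receptor UMI, and GNLY was highest, at 10852 CPM, in those with one.

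The mix differed from mouse to mouse. The share with an NK receptor UMI was 58.1% in reaction 1 (79 of 136, interval 49.3% to 66.5%) and 21.3% in reaction 2 (69 of 324, 17.0% to 26.2%). Over the untreated mice it was 19.1% at the lowest, 45.5% at the median and 93.3% at the highest, and over the maraviroc mice 15.9%, 21.1% and 81.0%. The largest shares were those of U2 (14 of 15 cells), M2 (17 of 21) and U7 (12 of 15). U2 and U7 also had few T cells of the gate at all, 64 in U2 and 45 in U7, against 116 to 494 in the other 12 mice, and 1 and 2 FOXP3-positive T cells. U2 and U7 lacked the 10 cells needed for the comparisons with FOXP3-positive and CD8 T cells, and their effect on the treatment comparison is given there.

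**Figure D2:**
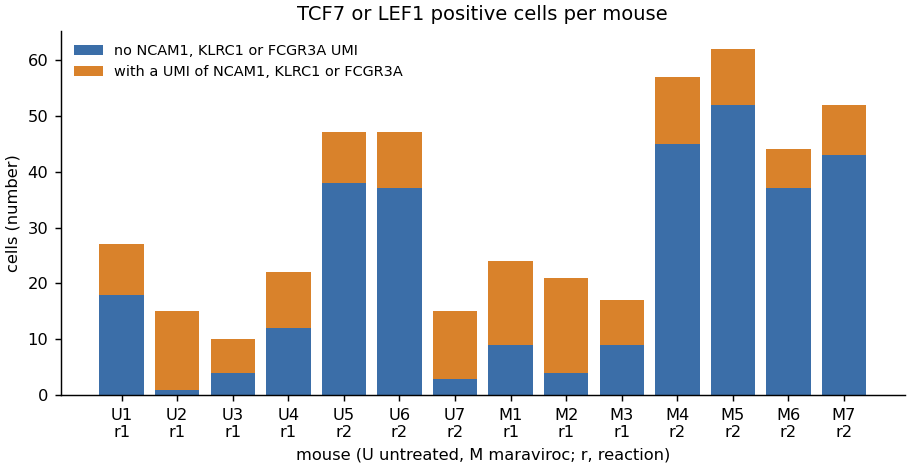
Number of TCF7 or LEF1 positive cells (vertical axis) in each of the 14 mice, split by the presence of a UMI of NCAM1, KLRC1 or FCGR3A. Totals ran from 10 in U3 to 62 in M5, and the cells with an NK receptor UMI made up most of the bar in U2, U3, U7, M1 and M2.

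B cell genes (CD79A at 3.03 CPM, MS4A1 at 6.31), the plasmacytoid dendritic cell gene LILRA4 (0.505 CPM), the keratin genes KRT8 (0.252 CPM) and KRT18 (1.77) and the thymocyte genes RAG1 (0.252) and DNTT (0) were at or near 0. KIT, which marks innate lymphoid cells, was 4.80 CPM. Other innate lymphoid genes were not near 0, and 3 of 7 listed, ID2 and ZBTB16 among them, were abundant enough to be tested. ID2 averaged 166 CPM in the cells with a LEF1 UMI and 278 CPM in those without (n = 8 mice). Cells with at least 5 UMIs summed over CD14, CD68, C1QA and C1QB are called myeloid cells here. SPP1, which they carried at 9127 CPM, was detected in 71.1% of the cells but at 197 CPM, and its level was 207 CPM in FOXP3-positive and 194 CPM in CD8 T cells. CD14 was 23.5 CPM against 1175 CPM in the myeloid cells.

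Across mice, TCF7 in the positive cells ranged from 131 to 381 CPM with a median of 243, and LEF1 from 35.9 to 217 CPM with a median of 115. IL7R varied more widely. It was 0 in U2, 12.3 CPM in U7 and 41.8 in M2, the 3 mice with the largest shares of NK receptor cells, and reached 427 CPM in U1 and 430 in M7. CD4 ranged from 12.3 CPM in U7 to 189 in M4, with a median of 84.7 CPM. IL7R was detected in 57.4% of the cells without and 12.2% of those with an NK receptor UMI, against 7.46% of CD8 T cells.

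The first comparison asked which genes outside the rule went with TCF7 and LEF1, by setting the positive cells against the TCF7/LEF1-negative T cells of the same mouse. In the positive cells, 9 of 16 homing and quiescence genes tested were higher, and 10 of 14 cytotoxic and 4 of 7 checkpoint receptor genes were lower. Over 14 mice and 4420 genes tested, 313 genes (7.08%) were higher and 275 (6.22%) lower at an adjusted p under 0.05 (edgeR's quasi-likelihood test with the mouse as a block, Benjamini-Hochberg adjustment). Without the cells that had an NK receptor UMI on either side, 8 mice had enough cells, and 374 of 4667 genes (8.01%) were higher and 345 (7.39%) lower, 438 of them genes also called with all cells.

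KLF2, the factor that drives S1PR1, rose by 1.34 ± 0.20 (adjusted p = 4.7e-05), with a median of 214 against 55.0 CPM and the positive cells higher in 10 of 14 mice. IL7R had a median of 201 CPM in the positive and 50.4 CPM in the negative cells and was higher in 11 of 14 mice by these levels (log2 fold change 1.54 ± 0.27, adjusted p = 0.00028). Of 24 quiescence and homing genes, 16 outside the rule could be tested, of which 9 were higher, none passed as lower and 10 had a positive sign. The median log2 fold change of these 16 was 0.57, beside 0.0015 over all genes tested. The 9 included KLF3 (1.51), BACH2 (1.28), a repressor of effector differentiation, and FOXP1 (0.60), which holds naive T cells quiet. Without NK receptor cells, 11 of 19 were higher and 3 were lower, among them FOXO1 (-0.83) and BTG1 (-0.51). CCR7 was too low for the test in this comparison. Its median was 73.8 CPM in the positive and 11.95 CPM in the negative cells, and it was higher in 12 of 14 mice.

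Further genes with 1 sign in all 14 mice had varied roles. ASAP1, a regulator of the cytoskeleton, averaged 436 ± 151 CPM against 169 ± 34.6 (SD, n = 14 mice, scaled by TMM) with a log2 fold change of 1.34 ± 0.12. INPP4B, a phosphoinositide phosphatase, was higher by 1.29, SORL1, a sorting receptor, by 1.45, and the kinase gene MAP4K4 by 0.90. MBP, MCUB, ABCC1, a drug and metabolite exporter, and ARAP2 were higher by 0.72 to 0.93. Each of these 8 genes was also called without NK receptor cells.

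**Figure D3:**
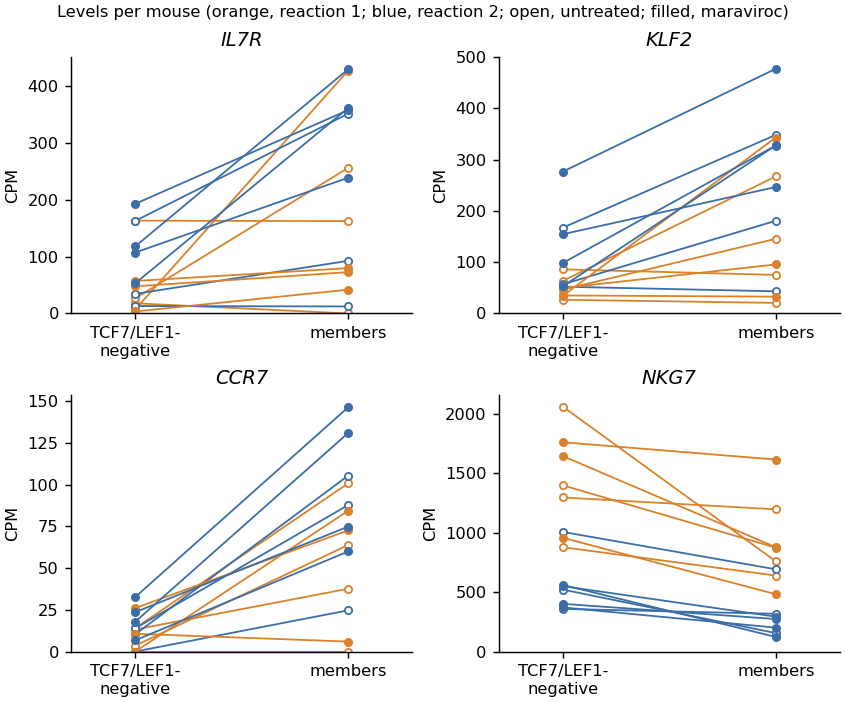
CPM (vertical axes) of 4 genes in the TCF7/LEF1-negative T cells and in the TCF7 or LEF1 positive cells of each mouse, joined by a line per mouse. CCR7, shown without a test, was higher in the positive cells of 12 of 14 mice and KLF2 in 10, and NKG7 was lower in all 14.

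T cell receptor signalling genes went both ways. Of 20 tested, 5 were higher and 2 lower, with TRAT1, which stabilizes the receptor at the surface, at 1.20, THEMIS at 0.76, and CD5 (0.77) and CD6 (0.87), which dampen its signal. TRBC1, a beta chain constant gene, was lower (-0.56). With NK receptor cells left out, 4 of 22 were higher and 5 lower. CD4 did not pass the test, with 0.01 ± 0.15 on the log2 scale. Of 13 genes of interleukin-2 and related signalling, IL4R (0.57) and STAT5B (0.49) were higher and BCL2 (-0.63) and IL2RB (-0.56) lower. Among the partners and targets of TCF and LEF proteins, 8 of 20 were tested, and the corepressor gene TLE3 (0.67) and TLE4 (0.48) were higher and CTNNB1, encoding beta-catenin, lower (-0.34). Only TLE4 passed without NK receptor cells. Ribosomal protein and elongation factor genes were higher in 13 of 20 and lower in none, with small changes such as 0.48 ± 0.09 for RPL13A.

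Among the genes lower in the positive cells were 3 chemokine genes. CCL3 and CCL4 had log2 fold changes of -2.04 and -1.80, from 892 ± 776 to 224 ± 197 CPM and from 1913 ± 1525 to 575 ± 402 CPM (SD, n = 14). Both genes have near-identical copies, between which 3' reads may be split or lost. CCL5 was lower by 1.04 ± 0.15 SE (log2 fold change -1.04), with 1 sign in all 14 mice. Of 14 cytotoxic genes tested, 10 were lower and none higher, including NKG7 (-0.82), GZMB (-1.05, granzyme B) and CST7 (-1.27). Without NK receptor cells, 8 of 10 were lower, and the changes were larger, with NKG7 at -2.16 and GZMB at -2.82. The exception was KLRG1, an inhibitory receptor gene, at 1.73. All 4 checkpoint receptor genes past the threshold, of 7 tested, were lower: CTLA4 (-1.75), LAG3 (-2.11), TIGIT (-1.14) and HAVCR2 (-0.88), and the same 4 passed without NK receptor cells.

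Activation genes gave 4 lower and 1 higher of 14, with IL2RA, the high-affinity interleukin-2 receptor chain, at -1.87 and TNFRSF1B at -0.69, against REL at 0.41. The interferon response gave 7 lower and none higher of 25, the largest being GBP5 (-0.93) and IFI6 (-0.86). Macrophage and monocyte genes were lower in 6 of 8 tested, with SPP1 at -1.04, FTL at -0.91 and CTSB at -0.93. Without NK receptor cells 4 of 7 were lower and none higher. The negative cells thus carried more transcripts of this list as well as fewer UMIs. The part of these transcripts and of depth in the other differences was not tested beyond thinning. With TCF7 and LEF1 read after each cell had been thinned to 1500 UMIs, 244 genes were higher and 182 lower in 8 mice, 280 of them shared with the unthinned calls.

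**Figure D4:**
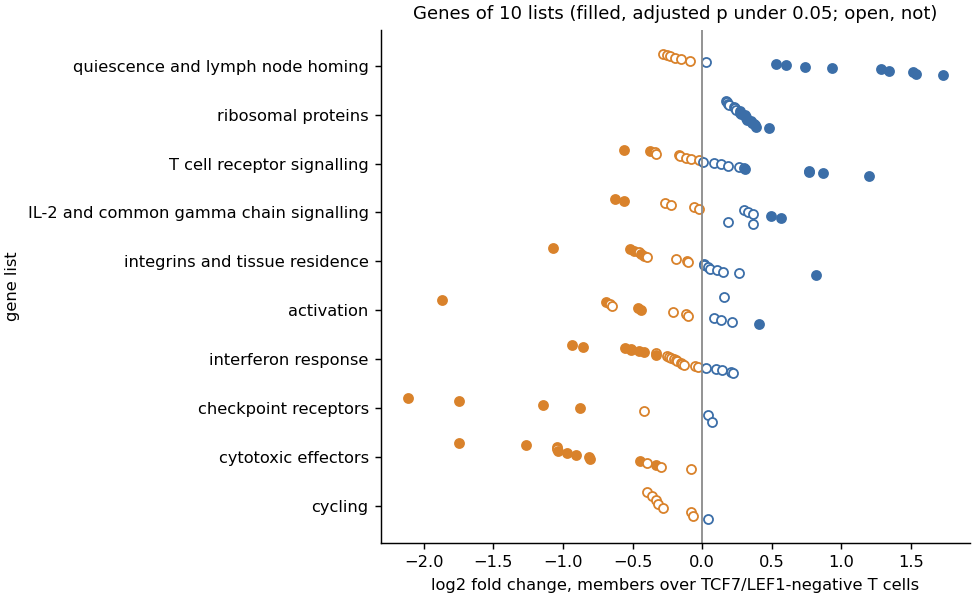
Log2 fold change (horizontal axis) of each tested gene in 10 lists (rows), TCF7 or LEF1 positive over TCF7/LEF1-negative T cells; 1 point is 1 gene and filled points had an adjusted p under 0.05. All 20 ribosomal genes and 10 of 16 homing genes lay to the right of 0, and all 14 cytotoxic and 5 of 7 checkpoint genes to the left.

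The second comparison placed the positive cells against FOXP3-positive T cells, the regulatory T cells of the gate, in the 12 mice with at least 10 cells of each. The FOXP3-positive cells had no CD8A or CD8B and no limit on TCF7, LEF1 or CXCL13. Selection on TCF7 and LEF1 therefore cannot be told apart from cell type here. TCF7 had a median over 14 mice of 243 CPM in the positive and 23.5 CPM in the FOXP3-positive cells. Of 6005 genes, 1106 (18.4%) were higher and 970 (16.2%) lower. Without NK receptor cells, 1016 of 5994 (17.0%) were higher and 987 (16.5%) lower in 8 mice. IL2RA fell from 640 ± 238 CPM in FOXP3-positive to 32.5 ± 24.5 CPM in the positive cells (SD, n = 12), a log2 fold change of -4.24 ± 0.18 SE. CTLA4 (-3.00), LAYN (-3.05), TIGIT (-1.78), TNFRSF4 (-1.84, OX40) and CXCR6 (-3.23) were also lower, as were GPAT3 (-4.83), MACC1 (-4.60), TMTC1 (-4.49), PARD6G (-3.95), GADD45A (-3.23) and TNIP3 (-2.96). Each of these 12 genes had the same sign in 12 of 12 mice, TIGIT and TNFRSF4 being named from the lists. ANK3, encoding the membrane scaffold ankyrin-G, averaged 291 ± 220 against 9.80 ± 9.11 CPM (log2 fold change 5.23 ± 0.31), and CYSLTR1, a leukotriene receptor gene, 142 ± 86.4 against 7.13 ± 9.14 (4.95 ± 0.28). TC2N was higher by 4.35. These 3 stayed at 4.49 to 5.74 without NK receptor cells.

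The other genes of largest rise over FOXP3-positive cells were XCL2 (5.09), XCL1 (4.46), KLRC2 (5.06), KLRC1 (4.70), KLRC3 (4.46) and KLRK1 (4.38), which NK cells express, and TXK (4.37), a kinase gene that is also on the homing and quiescence list. KLRC1 was among the genes that defined the NK receptor cells, and none of the other 6 was abundant enough to be tested once those cells were left out; the XCL and KLRC genes are near copies of one another. Cytotoxic genes were higher in 11 of 13 tested and lower in 2, PRDM1 (-2.54) and CST7 (-1.35). Without NK receptor cells 6 of 8 were still higher, with GNLY at 1.27 in place of 3.71 and NKG7 at 1.06 in place of 3.14. Homing and quiescence genes were higher in 10 of 18 and lower in 4, with BACH2 at 3.52, CD27 at -1.35 and FOXO1 at -1.23. Without NK receptor cells 15 of 20 were higher and 4 lower. All 20 ribosomal and elongation genes were higher in both settings. Of 9 chemokine receptor genes, CXCR4 (1.67) and GPR183 (0.57) were higher and 5 lower, and 4 of 10 were higher and 5 lower when NK receptor cells were left out. Of 14 stress and immediate early genes, 8 were higher, led by FOS (1.84) and FOSB (1.42).

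The third comparison was with CD8 T cells in 12 mice. These had at least 2 UMIs summed over CD8A and CD8B, none of FOXP3 and at most 1 of CXCL13. They too had no limit on TCF7 or LEF1, so selection on these genes cannot be told apart from cell type. Their median TCF7 over 14 mice was 47.4 CPM, against 243 CPM in the positive cells. Of 5405 genes, 547 (10.1%) were higher and 373 (6.9%) lower, and without NK receptor cells, in 7 mice, 424 of 4780 (8.87%) were higher and 298 (6.23%) lower. FAAH2, an amide hydrolase gene, averaged 404 ± 233 against 35.4 ± 41.3 CPM (log2 fold change 3.84 ± 0.31), and TNFRSF4 180 ± 85.8 against 21.3 ± 18.5 (3.51 ± 0.38). PCBP3 (3.11), ANK3 (3.03), CYSLTR1 (2.98), UST (2.14), the costimulatory receptor gene CD28 (1.77) and BIRC3 (1.49) were higher in all 12 mice and also without NK receptor cells. TRDC was higher (1.94) in all 12 mice and too low for the test without NK receptor cells. Of 19 homing and quiescence genes, 12 were higher, IL7R by 2.77 and CCR7 by 1.63 among them, and CD27 was lower (-0.73). Of 9 helper lineage genes tested, 3 were higher, MAF (1.55) and GATA3 (0.67) among them, and none was lower. Without NK receptor cells 4 of 9 were higher and none lower.

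Cytotoxic genes were lower than in CD8 T cells in 13 of 17 and higher in 1, KLRG1 (0.75), with a median log2 fold change of -1.16. Of 15 tested without NK receptor cells, 14 were lower and none passed as higher, with a median of -2.86 and KLRG1 at 0.49 (edgeR adjusted p = 0.33). GZMH (-3.24), GZMK (-1.96), CCL4 (-2.04) and CCL4L2 (-3.30) had the same sign in every mouse. GNLY did not pass with all cells (0.09, edgeR adjusted p = 0.89) and was lower without NK receptor cells (log2 fold change -2.76). That setting also left 7 mice in place of 12, and the part of each in the change was not tested. LAG3 (-2.66), the residence integrin gene ITGAE (-2.32), CD70 (-2.16), TRGC2 (-2.36), KIF21A (-2.35) and ADAMTS6 (-1.93) were lower in all 12 mice. In reaction 1 alone 62 genes passed and in reaction 2 alone 1194.

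Among the positive cells, the 235 with a LEF1 UMI were set against the 225 with TCF7 alone, in 8 mice with at least 10 cells of each. Depth was alike, with medians of 7621 and 7585 UMIs. Of 3795 genes, 19 (0.501%) were higher and 17 (0.448%) lower in LEF1-positive cells. PLCL1, a phospholipase C-like gene, averaged 242 ± 145 against 84.2 ± 64.1 CPM (SD, n = 8), a log2 fold change of 1.59 ± 0.25 SE. SORL1 (1.32), FAM13A (1.27), GRAP2 (1.07), ANK3 (0.996), CYSLTR1 (0.92), CRTC3 (0.76), PITPNC1 (0.72), GPCPD1 (0.70) and ERC1 (0.69) were higher in 8 of 8 mice. NFKBIA and NFKB1, an inhibitor and a subunit of NF-kB, were lower, from 551 ± 115 to 307 ± 90.2 CPM and from 1156 ± 215 to 791 ± 174 CPM. BHLHE40 (-1.03) and ID2 (-0.78), transcription regulators of effector and innate lymphocytes, SLC7A5 (-1.08), an amino acid transporter gene, AUTS2 (-1.02), SNRPD1 (-0.71), ATXN1 (-0.54) and the histone gene HIST1H1B (-1.49) were lower in 8 of 8. Of the homing list, KLF2 (0.88) and FOXP1 (0.50) passed among 18 tested. Without NK receptor cells 1 of 20 passed. The sign of KLF2 turned in reaction 1 alone and that of FOXP1 after thinning. None of 5 genes of dividing cells passed, but all 5 had a negative sign and an unadjusted p under 0.05, with a median of -0.77; without NK receptor cells the same held for 3 of 3, with a median of -1.04. The calls were few and moved with the setting: 1 gene passed with at least 80% of hashtag UMIs from 1 mouse, in 5 mice, and 19 of the 36 also passed without NK receptor cells. When TCF7 and LEF1 were read at 1500 UMIs per cell, 21 genes passed in 3 mice, and 2 of them were shared.

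**Figure D5:**
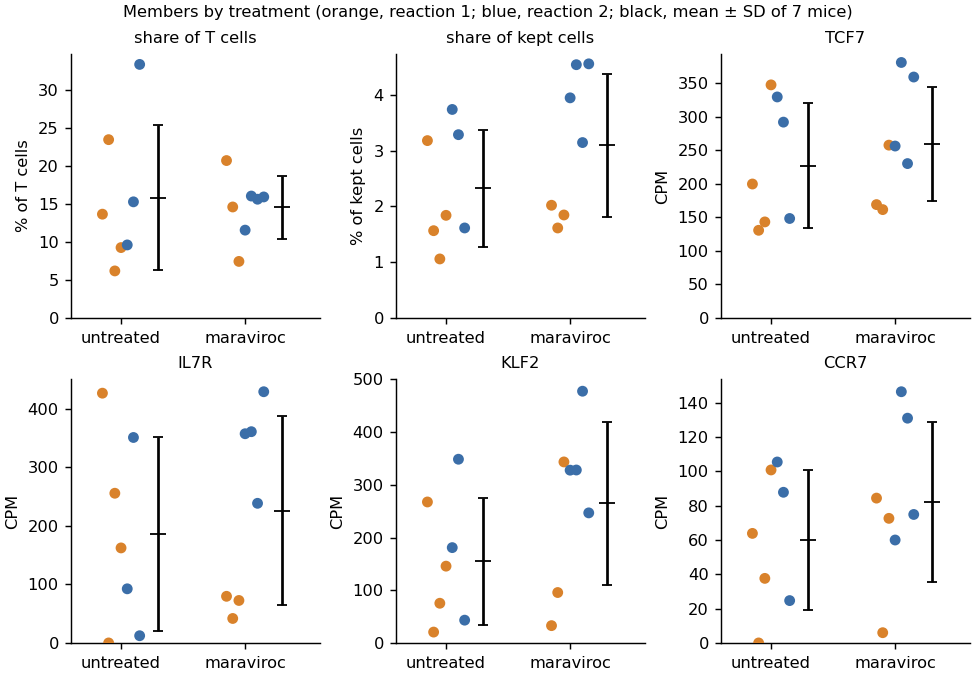
Share of TCF7 or LEF1 positive cells among T cells and among kept cells (percent) and CPM of 4 genes in these cells, by treatment; 1 point is 1 mouse, coloured by reaction, and bars are mean ± SD of 7 mice. The untreated and maraviroc mice overlapped in all 6 panels.

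The treatment comparison asked whether the positive cells changed in number or in expression with maraviroc. They were 15.8% ± 9.53 of T cells in untreated and 14.5% ± 4.14 in maraviroc mice (SD, n = 7 each). The lowest, median and highest shares were 6.17%, 13.6% and 33.3% in untreated mice and 7.42%, 15.6% and 20.7% in maraviroc mice. The difference within reactions averaged -1.76 percentage points (two-sided exact permutation of all regroupings within reactions, p = 0.70). The highest untreated shares were those of U7 and U2. Without U2 and U7 the untreated mean was 10.8% ± 3.65 and the difference 3.44 points (exact permutation p = 0.17), and with M2 left out as well it was 3.36 points (exact permutation p = 0.30). With cells that had an NK receptor UMI left out of both counts, the shares were 13.2% ± 7.21 and 13.3% ± 5.16, a difference of -0.92 points within reactions (exact permutation p = 0.76). The difference in the share of T cells was 1.11 points in reaction 1 and -4.63 points in reaction 2. As a share of all kept cells they were 2.33% ± 1.05 and 3.10% ± 1.28, a difference of 0.54 points within reactions (exact permutation p = 0.27). The difference was -0.08 points in reaction 1 and 1.17 points in reaction 2. With hashtag UMIs at 80% or more it was 0.89 points (exact permutation p = 0.044), and without U1 it was 0.75 points (exact permutation p = 0.047). None of these p-values was adjusted for the number of settings.

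No gene passed an adjusted p of 0.05 between treatments in 14 mice with the reaction as a covariate (0.0% of 4367 tested by edgeR), and DESeq2 gave none either. At an unadjusted p under 0.05 there were 171 genes by edgeR (3.92%) and 150 by DESeq2. TCF7 was 131, 200 and 347 CPM at the lowest, median and highest in untreated mice and 161, 256 and 381 CPM in maraviroc mice, and the groups overlapped. TCF7 is a gene of the rule, so these levels are a description. IL7R was 0, 162 and 427 CPM in untreated and 41.8, 239 and 430 CPM in maraviroc mice (-0.02 ± 0.61). KLF2 was 20.6, 146 and 348 CPM and 32.8, 328 and 477 CPM (0.52 ± 0.46), and CCR7 0, 63.9 and 105 CPM and 5.98, 74.9 and 146 CPM (0.27 ± 0.42). The standard errors of IL7R, KLF2 and CCR7 were 0.42 to 0.61 on the log2 scale, in sums of 10 to 62 cells per mouse.

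The genes of lowest unadjusted p were SMC2 (-1.07 ± 0.28), CRTAM (-1.30 ± 0.34), GPHN (-0.998 ± 0.27), CLSPN (-1.46 ± 0.44) and CBX5 (-0.72 ± 0.22), lower with maraviroc, and HDAC4 (0.75 ± 0.21), MARCH3 (0.83 ± 0.24), LSM14A (0.50 ± 0.15), NUP98 (0.52 ± 0.17) and RAPGEF2 (1.18 ± 0.38), higher with it, all with an adjusted p of 1.0 by edgeR. SMC2, CLSPN and CBX5 act in chromosome condensation, replication checkpoints and heterochromatin, and CRTAM is a receptor of activated cytotoxic cells. CRTAM averaged 324 ± 153 CPM in untreated and 127 ± 131 CPM in maraviroc mice (SD, n = 7 each), while the share of cells with an NK receptor UMI was 50.4% ± 28.7 and 37.3% ± 26.5. In the 8 mice with at least 10 cells free of an NK receptor UMI, no gene passed, and 229 had an unadjusted p under 0.05. There SMC2 was -1.57, GPHN -1.52, HDAC4 0.74, MARCH3 0.62 and LSM14A 0.60, and the other 5, CRTAM included, were too low for the test. In every list, 0 genes passed: the 19 homing and quiescence genes had a median log2 fold change of 0.19, the 13 cytotoxic genes -0.26, the 6 genes of dividing cells -0.57, the 4 NK genes -0.45 and the 20 ribosomal and elongation genes 0.05, beside -0.0027 over all genes tested. None of the 6 genes of dividing cells or the 4 NK genes had a positive sign; without NK receptor cells their medians were -0.36 over 6 and -0.14 over 1. No gene passed in the test of a different treatment effect in the 2 reactions (0.0% of 4367 by edgeR and none by DESeq2, with 200 and 136 genes at an unadjusted p under 0.05).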

How the data were processed

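The authors deposited UMI counts per gene and hashtag for each reaction, made with Cell Ranger 9.0.1 (and Seurat 5.1.0 per their processing notes) on GRCh38, without normalization. Kept barcodes had 601 to 6000 genes, under 12.5% mitochondrial UMIs and a top hashtag with at least 60% of hashtag UMIs. No doublet caller was run; the hashtag limit removed cells without a leading hashtag, and 290 of the 460 cells had a top hashtag of 80% or more. Treatment was read from the hashtag names. The members and lists were chosen with earlier results of these data known. UMIs were summed per mouse where at least 10 cells were present and tested with edgeR 4.0.16 (TMM, filterByExpr, quasi-likelihood, Benjamini-Hochberg; mouse or reaction as covariate) in R 4.3.3. DESeq2 1.42.0, other scaling, filters, hashtag limits, thinning and left-out mice were alternatives. The omission of cells with a UMI of NCAM1, KLRC1 or FCGR3A, and of U2 and U7, with or without M2, was chosen after seeing the data. Shares were compared in Python 3.11.15. Scripts were tested on simulated data. Mice are separate animals, but whether they shared a donor was not given in the sources used here. Named genes were, for each comparison, the 10 largest changes in each direction with an adjusted p under 0.05, at least 20 CPM and 1 sign in every mouse (for treatment the 5 lowest p in each direction), genes of the lists with the lowest p, and the rule's genes, CD4 and IL7R; some genes that met this are not reported here. X-inactivation, Y-linked, variable-segment, mitochondrial and unnamed transcripts were not named.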

Additional observations from a re-analysis of the deposited data

How the results depend on the processing

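Between treatments no gene passed in the fits with another scaling, DESeq2, no reaction term, stricter hashtags, no dividing cells, no NK receptor cells, either reaction alone or any mouse left out. Without the filter on low counts 41 genes passed, CLSPN, CRTAM, SMC2, GPHN and MARCH3 among them, and the cause was not tested. The difference in the share of T cells turned to 1.11 points in reaction 1 alone (-4.63 in reaction 2) and 3.44 points without U2 and U7 (3.36 without M2 as well), and ran from -4.21 (without U5) to 1.72 (without U7) with 1 mouse left out. That of kept cells was 0.89 points with hashtags at 80% or more (exact permutation p = 0.044) and -0.084 in reaction 1. With 1 mouse left out it ran from 0.23 (without U7) to 0.76 (without U5), and was 0.75 without U1 (exact permutation p = 0.047). These p-values were not adjusted for the number of settings, and the main setting gave 0.27 by the same test. Called genes against the TCF7/LEF1-negative cells were 300 with strict hashtags and 62 in reaction 1, against FOXP3-positive cells 730 in reaction 1, and against CD8 T cells 62 in reaction 1 and 1386 without the low-count filter. For LEF1, 126 genes passed without the filter, 1 with strict hashtags, 2 in reaction 1, 58 in reaction 2 and 21 after thinning. In reaction 1 and with strict hashtags, fewer cells and mice entered. The other alternatives kept each count within 1.5 times. Among named or listed genes that passed between cell groups, the sign changed in 5 cases: REL against CD8 T cells without NK receptor cells (-0.044), and for LEF1, KLF2 in reaction 1 (-0.26) and, after thinning, GPCPD1 (-0.59), AUTS2 (0.35) and FOXP1 (-0.084). No paired analysis was possible because each mouse received 1 treatment; the cell groups were compared within mice.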

Other observations

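Genes of other programs were counted in the same fits. Over all genes tested, 7.08% were higher and 6.22% lower than in the TCF7/LEF1-negative cells, 18.4% and 16.2% against FOXP3-positive cells, and 10.1% and 6.9% against CD8 T cells. Of 18 integrin and residence genes tested against the TCF7/LEF1-negative cells, ANXA1, encoding the lipid-binding annexin A1, was higher (0.81) and 5 were lower, with ITGAE at -1.07 and S100A4 at -0.42; with NK receptor cells left out, 2 of 15 were higher and 5 lower. Against FOXP3-positive cells 7 of 17 were higher, ANXA1 by 3.33 and ITGA4 by 0.84, and 5 lower. Of helper lineage genes, IL12RB2 (-0.99) and MAF (-0.91) were lower than in the TCF7/LEF1-negative cells among 8 tested and none was higher, whereas 2 of 9 were higher and 3 lower when NK receptor cells were left out. Against FOXP3-positive cells 4 of 11 were higher, led by CSF2 (2.68) and KLRB1 (1.68), and 4 lower, led by LTA (-2.31). Of 8 lipid and cholesterol genes tested against TCF7/LEF1-negative cells, 1 was higher, SREBF2 (0.45), the regulator of cholesterol synthesis, and none was lower. Against FOXP3-positive cells 4 of 12 were higher, SREBF2 (0.56) and the fatty acid carrier gene FABP5 (0.88) among them, and none lower. Against CD8 T cells 1 of 10 was higher and 1 lower, FABP5 (-0.85).

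Lists of other lineages had few testable genes in the comparison with the TCF7/LEF1-negative cells. Of NK genes, 2 of 5 were lower (6.22% of all genes), KLRC1 (-0.62) and IL2RB (-0.56). Of innate lymphoid genes, ID2 (-0.44) and ZBTB16 (-0.68) were lower among 3, and 0 of 3 passed without NK receptor cells, where they were -0.32 and -0.24. None passed of 2 thymocyte, 2 gamma delta, 1 plasmacytoid dendritic cell and 8 cycling genes. No B cell, carcinoma or mast cell gene was abundant enough to be tested with all cells. Without NK receptor cells the 1 plasmacytoid dendritic cell gene tested was lower (-2.29), beside 7.39% of all genes. In that setting 1 B cell gene could be tested and did not pass (-0.58). Of the genes of dividing cells, 4 of 8 were lower than in CD8 T cells (6.9% of all genes), MKI67 by a log2 fold change of -1.01. Without NK receptor cells 0 of 6 passed, with a median of -0.70 and MKI67 at -1.30 (edgeR adjusted p = 0.12), and 2 of the 6 had an unadjusted p under 0.05. Against FOXP3-positive cells 0 of 9 passed with all cells, none at an unadjusted p under 0.05, but 6 of 8 were lower without NK receptor cells (16.5% of all genes), MKI67 at -1.63. In 24 sets of 7 mice (12 measures in 2 treatments), no mouse stood apart from the others of its treatment by Dixon's criterion. The criterion reads the gap between the outermost mouse and the next, so 2 mice at the same end can hide each other. The numbers of T cells and of FOXP3-positive cells, which were low in U2 and U7, were not among the measures.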
